A study of Mus musculus with 12 samples.

Results

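Open chromatin of thymic iNKT2 cells was compared between Hivep3-/- and C57BL/6 mice, and the regions that rose or fell are described here by their genes, pathways and places in the genome. The members are all regions whose mean on the linear scale was at least 5 in either iNKT2 group, which is 55049 of the 63309 regions in the deposited table. The comparison rests on 4 of the 12 libraries, 2 from each genotype. The other 8 libraries, from iNKT1 and iNKT17 cells, helped to estimate the spread between replicates and are quoted only where the genotype change was tested for a difference between subsets.

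The study sorted iNKT1, iNKT2 and iNKT17 cells from pooled thymi, put the subsets together for the transposase reaction, and separated them again by ICOS and CD138. Control mice were C57BL/6, and mutant mice were Hivep3-/- animals backcrossed to that strain. Thymocytes came from animals of 8 to 9 weeks, mice of either sex were in use, and no treatment is named for either genotype. The first gate for iNKT2 cells was CD122- ICOS+ Izumo1r+ CD138-. What a replicate number stands for is uncertain, because the titles count mice whereas the methods speak of pools.

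iNKT cells are T cells with a semi-invariant receptor that recognizes lipids on CD1d, and they leave the thymus as effector cells under the transcription factor PLZF (Zbtb16). The iNKT2 subset is known for high PLZF and GATA3 and for IL-4 production in the thymus at steady state. HIVEP3 is a large zinc finger protein of a family that binds κB-like DNA elements, and it has also been described as an adaptor in signalling by TNF receptors and as a partner of AP-1 proteins.

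Values are log2 of normalized transposase insertions per kilobase in regions of 500 bp, so that a difference of 1 is a doubling. Normalization fixed the sum of every library, and no read counts accompany the table, so depth can be judged only indirectly. A shallower library has fewer distinct low values and more regions at its lowest value. Below the median, the C57BL/6 iNKT2 libraries held 219 and 159 distinct values and the Hivep3-/- libraries 91 and 118. The lowest value was shared by 178 and 269 regions in C57BL/6 and by 601 and 459 in Hivep3-/- libraries. By this measure the mutant libraries were the coarser ones at weak regions, and its part in the falls described below was not tested. The p-values measure a difference against the spread between these libraries, which may be technical rather than between animals.

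The label was checked against marker genes. The regions at 7 iNKT2 markers (Zbtb16, Gata3, Il4, Icos, Izumo1r, Il17rb and Slamf6) summed on the linear scale to 5566 and 5330 in C57BL/6 and to 5009 and 5013 in Hivep3-/- iNKT2 libraries. All 4 sums lie above the C57BL/6 means of 3952 in iNKT1 and 4086 in iNKT17 cells, and most of the signal came from Zbtb16. In the same order, markers of double positive thymocytes gave 376, 386, 399 and 388, mostly from Ptcra, while Rag1, Cd8a and Cd8b1 had no region in the table. B cell markers gave 505, 514, 493 and 505, led by Cd79a, and myeloid markers gave 35.9, 50.5, 34.6 and 47.1, led by Cebpa and without a region at Csf1r. Not every iNKT2 marker was highest in iNKT2 cells: Gata3 had mean sums of 489 in C57BL/6 and 454 in Hivep3-/- iNKT2 cells, below the 543 of C57BL/6 iNKT1 cells, and in Hivep3-/- iNKT2 cells Il4 (671 against 698) and Izumo1r (271 against 281) were also below the C57BL/6 iNKT1 means, though above the 539 and 216 of Hivep3-/- iNKT1 cells. Markers of iNKT1 cells are taken up with the falls below.

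The sequences below come from 9 changed regions on which the results turn, chosen after their values were seen: 5 that rose (Socs1, Ets1, Tnik, Tgfbr2, Cd247) and 4 that fell (Nkg7, Il4, Pde2a, Tox2). Each is 300 bases of the plus strand of GRCm38.p6 from RefSeq, 5′ to 3′, at chr16:10781905-10782204 (Socs1, downstream), chr9:32743714-32744013 (Ets1, intron), chr3:28402228-28402527 (Tnik, intron), chr9:116152918-116153217 (Tgfbr2, intron), chr1:165820840-165821139 (Cd247, intron), chr7:43436348-43436647 (Nkg7, promoter), chr11:53609694-53609993 (Il4, intron), chr7:101466666-101466965 (Pde2a, intron) and chr2:163229110-163229409 (Tox2, intron). Capitals mark matches on either strand to the κB element GGANTTTCC, the T-box element AGGTGTGA, the Runt element AACCACA, the AP-1 element TGANTCA, the TCF element CTTTGAA and the GATA element AGATAA. Among all tested regions of 500 bp, 2.45% hold the κB letters, 2.61% the T-box letters, 16.3% the Runt, 15.3% the AP-1, 11.1% the TCF and 19.9% the GATA letters.
Socs1: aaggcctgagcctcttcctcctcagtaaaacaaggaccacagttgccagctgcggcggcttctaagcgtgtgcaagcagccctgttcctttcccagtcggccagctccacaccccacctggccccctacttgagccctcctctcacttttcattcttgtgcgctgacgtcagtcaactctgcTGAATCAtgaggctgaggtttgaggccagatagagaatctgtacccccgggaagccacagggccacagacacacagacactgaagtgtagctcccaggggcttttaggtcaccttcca
Ets1: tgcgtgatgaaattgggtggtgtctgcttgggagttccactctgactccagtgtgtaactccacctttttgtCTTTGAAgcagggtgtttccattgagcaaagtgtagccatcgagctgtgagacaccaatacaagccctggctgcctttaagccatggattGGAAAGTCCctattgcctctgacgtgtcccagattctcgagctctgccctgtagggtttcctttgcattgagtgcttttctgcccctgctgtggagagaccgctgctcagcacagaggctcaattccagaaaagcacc
Tnik: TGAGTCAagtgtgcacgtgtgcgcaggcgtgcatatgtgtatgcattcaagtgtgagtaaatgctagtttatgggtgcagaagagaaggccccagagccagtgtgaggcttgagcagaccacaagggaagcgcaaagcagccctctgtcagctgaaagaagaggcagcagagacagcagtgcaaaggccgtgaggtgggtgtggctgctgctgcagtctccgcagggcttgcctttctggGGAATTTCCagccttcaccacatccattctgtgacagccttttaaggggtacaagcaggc
Tgfbr2: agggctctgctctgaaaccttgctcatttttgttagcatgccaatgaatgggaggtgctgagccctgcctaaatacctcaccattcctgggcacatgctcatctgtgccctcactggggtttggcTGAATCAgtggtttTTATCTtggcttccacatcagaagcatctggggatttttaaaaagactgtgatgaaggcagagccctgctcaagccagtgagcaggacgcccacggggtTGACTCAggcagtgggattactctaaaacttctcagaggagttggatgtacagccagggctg
Cd247: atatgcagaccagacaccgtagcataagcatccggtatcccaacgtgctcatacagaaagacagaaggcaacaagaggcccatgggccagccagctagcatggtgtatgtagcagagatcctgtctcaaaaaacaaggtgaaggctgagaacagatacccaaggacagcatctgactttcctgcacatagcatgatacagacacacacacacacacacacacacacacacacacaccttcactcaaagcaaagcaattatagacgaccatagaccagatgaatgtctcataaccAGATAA
Nkg7: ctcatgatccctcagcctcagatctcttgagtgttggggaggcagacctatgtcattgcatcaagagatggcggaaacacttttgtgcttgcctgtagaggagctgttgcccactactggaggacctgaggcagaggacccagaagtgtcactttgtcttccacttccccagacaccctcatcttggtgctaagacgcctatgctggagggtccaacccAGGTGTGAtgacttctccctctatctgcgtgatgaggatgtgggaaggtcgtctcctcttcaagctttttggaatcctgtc
Il4: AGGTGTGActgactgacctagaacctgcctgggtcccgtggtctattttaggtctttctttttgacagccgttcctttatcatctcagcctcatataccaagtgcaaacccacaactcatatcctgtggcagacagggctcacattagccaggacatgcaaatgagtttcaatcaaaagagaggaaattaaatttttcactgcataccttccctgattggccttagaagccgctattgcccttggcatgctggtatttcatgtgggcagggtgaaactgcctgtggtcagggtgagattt
Pde2a: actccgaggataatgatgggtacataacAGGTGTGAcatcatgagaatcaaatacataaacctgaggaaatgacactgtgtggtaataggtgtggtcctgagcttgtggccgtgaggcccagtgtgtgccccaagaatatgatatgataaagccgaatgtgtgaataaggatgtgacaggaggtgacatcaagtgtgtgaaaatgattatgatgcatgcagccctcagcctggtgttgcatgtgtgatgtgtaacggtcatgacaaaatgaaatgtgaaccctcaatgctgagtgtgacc
Tox2: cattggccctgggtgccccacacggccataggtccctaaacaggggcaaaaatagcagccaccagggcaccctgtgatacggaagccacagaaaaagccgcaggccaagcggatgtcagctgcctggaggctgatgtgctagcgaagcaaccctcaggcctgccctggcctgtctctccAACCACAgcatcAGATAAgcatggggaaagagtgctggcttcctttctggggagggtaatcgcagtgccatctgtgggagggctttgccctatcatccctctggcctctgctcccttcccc
The windows at Ets1 and Tnik hold 1 κB match each, and those at Nkg7, Il4 and Pde2a hold 1 T-box match each. A match is a description of the letters and does not show that a factor binds there.

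The targeted gene comes first. Hivep3 has 21 regions in its body or within 10 kb of it, and 18 were tested. At its promoter the values were 6.72 and 6.63 in C57BL/6 and 6.36 and 6.44 in Hivep3-/- iNKT2 libraries, a change of -0.28 (adjusted p = 0.0322). The mutant libraries were lower there without overlap, but the promoter remained among the accessible ones. At 1 intron region, singled out after its values were seen, the values were 2.17 and 2.33 against 3.31 and 3.53, a rise of 1.17 (adjusted p = 0.0321). None of the Hivep3 regions reached 3-fold. The sources used here do not give the position of the deletion, so these regions do not check the genotype.

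Across the tested regions, 923 (1.68%) passed an adjusted p under 0.1 with at least a 3-fold change in iNKT2 cells. Of all tested regions, 261 (0.474%) rose that much and 662 (1.20%) fell that much. In all 923 the libraries of the genotypes did not overlap, and the same held in 29594 of the tested regions. Separation of the genotypes at a changed region, here or in any description below, is therefore no further support for its change. Without the threshold on size, 9036 regions (16.4%) passed the adjusted p alone, but 4308 to 6302 did when 1 of the 4 libraries was left out, a setting added after the data were seen. The counts of regions that pass upward or downward at genes and lists below rest on this call. The median change over all tested regions was -0.001, and the median difference between the replicates was 0.164 in C57BL/6 and 0.199 in Hivep3-/- libraries. Large changes lay at weakly accessible regions: between linear means of 5 and 10 there were 126 rises and 275 falls, between 50 and 100 there were 5 and 6, and from 100 upward limma called 0 of 4373 regions, where 903 had an unadjusted p under 0.05. Strong regions, those whose linear mean reached 50 in either iNKT2 group, numbered 12653. Of these, 374 (2.96%) changed 1.5 to 3-fold at an adjusted p under 0.1, with 222 rises (1.75%) and 152 falls (1.20%). Thus large changes were mostly falls, while moderate changes at strong regions were more often rises. Because the large changes sit at low values, they depend on how low values are treated: with 5 added on the linear scale before the logarithm, 68 regions passed both thresholds, among them 24 of 137 named regions that had a change of at least 3-fold.

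**Figure D1:**
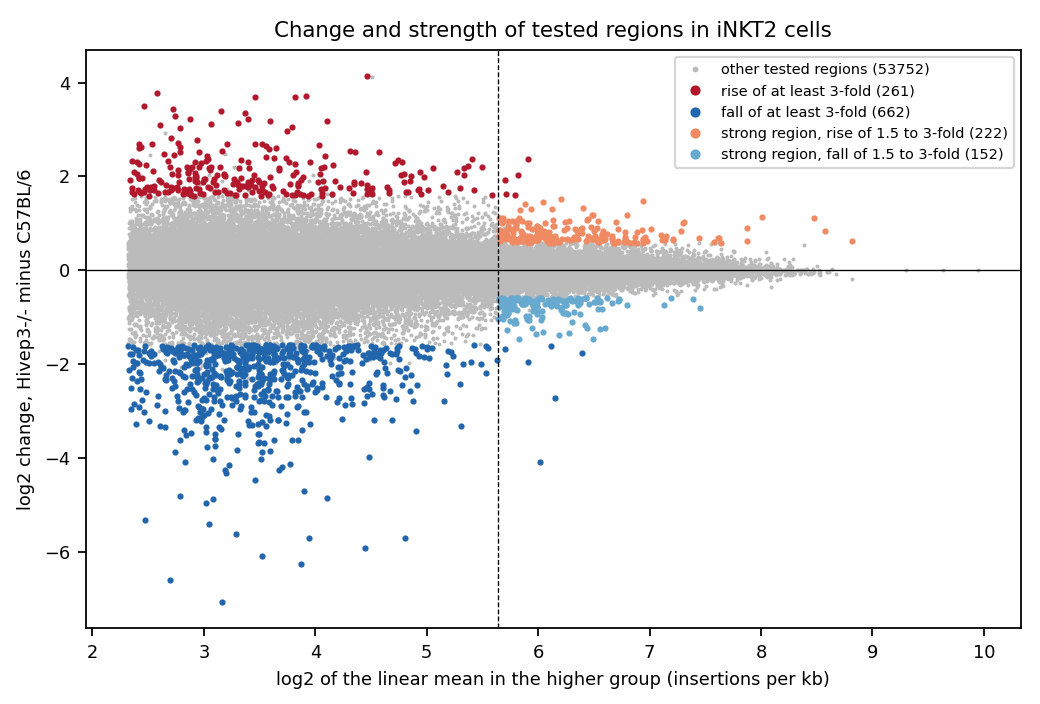
Log2 change (Hivep3-/- minus C57BL/6, vertical axis) against the log2 of the linear mean in the higher group (insertions per kilobase, horizontal axis) for the tested iNKT2 regions. The dashed line marks the start of the strong regions, and colours mark rises and falls of at least 3-fold and of 1.5 to 3-fold.

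The largest rises by log2 change, among regions with no library at its lowest value, follow. In an intron of Cd247, the zeta chain that carries the T cell receptor's signal, the values were 1.20 and -0.55 in C57BL/6 and 4.46 and 4.46 in Hivep3-/- libraries. Both mutant libraries stood far above both controls, which were themselves uneven, and the change was 4.13 (SE 0.47, adjusted p = 0.000267). At Camk2b, a subunit of a calcium and calmodulin-dependent kinase, the values were -0.55 and -0.10 against 2.89 and 3.87, a rise of 3.70 (adjusted p = 0.00145). The nearest gene to a further region, 330 kb away, was Ajap1, with -1.0 and -0.67 against 1.98 and 3.21, a rise of 3.43 (adjusted p = 0.00384). Again no library of one genotype reached the other, but 80.2% of the Ajap1 region is repeat sequence, and it drops below the accessibility threshold when the second Hivep3-/- library is left out. Rises of 3.78 near Trib2, a pseudokinase (0.27 and -2.69 against 2.75 and 2.39), and of 3.71 within Fhit (0.49 and -0.16 against 4.20 and 3.56) were less firm. The first lost its call without the second C57BL/6 library (adjusted p = 0.173), and the second without any 1 of the 4 libraries (adjusted p from 0.175 to 0.290).

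Among regions with no library at its lowest value, the largest falls brought regions of middling accessibility to low values in the mutant libraries. Upstream of Rell1, by 62.0 kb, the values were 4.11 and 3.57 in C57BL/6 and -2.43 and -2.39 in Hivep3-/- libraries, a fall by 6.25 (adjusted p = 4.05e-06). Near Ltbp1, which codes for a protein that binds latent TGF-β in the matrix, they were 4.53 and 4.35 against -1.22 and -1.72, a fall by 5.91 (adjusted p = 0.000470). At BC004004 they were 4.84 and 4.77 against -0.40 and -1.38, a fall by 5.70 (adjusted p = 1.32e-05). In these 3 the mutants lie at low values, which these libraries resolve coarsely, so the size of the change is poorly fixed even though the groups are far apart. Near Hif1a, the oxygen-regulated transcription factor, the values 3.06 and 2.44 went to -1.72 and -2.39, a fall by 4.80 (adjusted p = 0.000235). The region nearest to Nr3c1, the glucocorticoid receptor gene, lies in an exon of Arhgap26 and went from 4.18 and 4.02 to -1.72 and 0.20, a fall by 4.86 (adjusted p = 0.00647). The region nearest to Eps8l3 went from 3.29 and 2.75 to -1.72 and -3.06, a fall by 5.41 (adjusted p = 0.00654). Among these, the mutant libraries were uneven at Nr3c1 and Eps8l3, though both stayed well under the controls. Mutant values were low at Hif1a, Nr3c1 and Eps8l3 too, so the sizes of these falls are likewise poorly fixed.

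**Figure D2:**
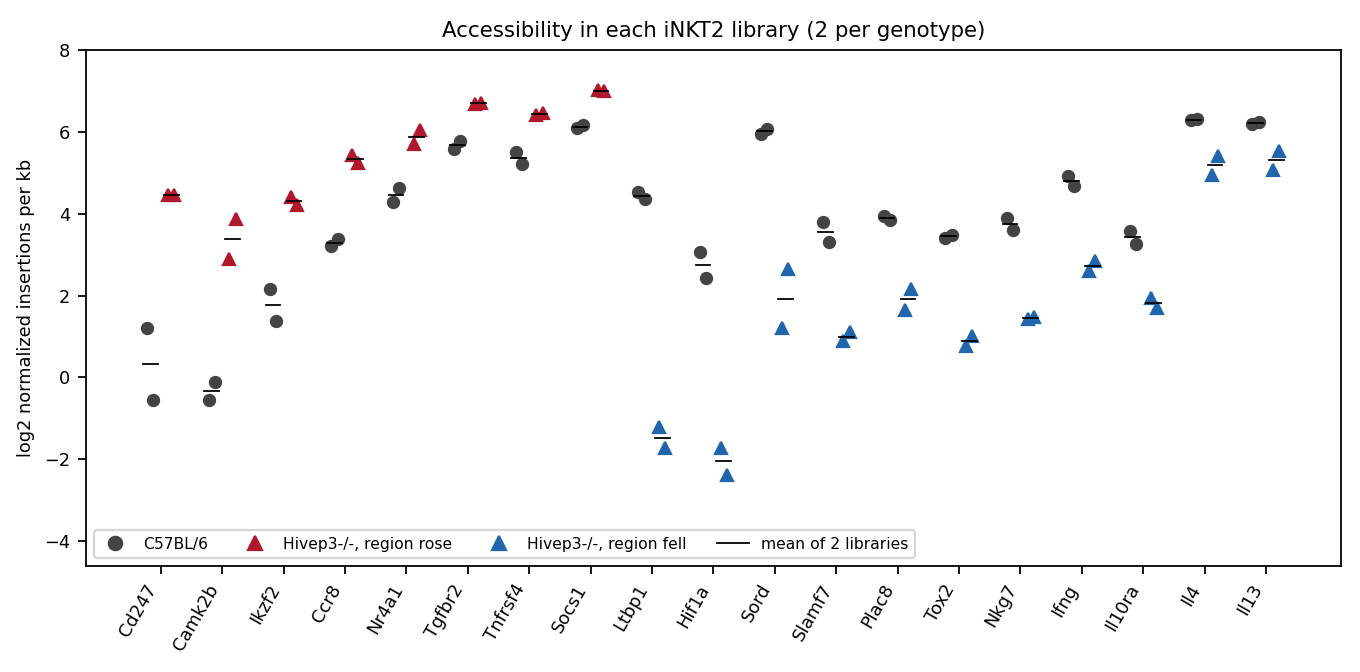
Log2 normalized insertions per kilobase (vertical axis) in each iNKT2 library at 1 region of each of 19 genes (horizontal axis). Circles are C57BL/6 and triangles Hivep3-/- libraries, and lines mark group means.

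A few strong regions changed at least 3-fold, and 10 of the 11 are named here, those outside the rule for named genes having been chosen after their values were seen. Rises were seen in an intron of Amph whose nearest start site is that of Tcrg-C1, a gamma chain constant gene, with 3.74 and 3.35 in C57BL/6 and 6.02 and 5.79 in Hivep3-/- libraries, a change of 2.36 (SE 0.19, adjusted p = 2.78e-05). Replicates differed little there and the groups were well apart. The other rises were 1.93 at Igsf23 (3.85 and 3.70 against 5.69 and 5.72), 1.63 at Kdm2b, a histone demethylase (4.10 and 4.04 against 5.61 and 5.80), and 1.61 near Adtrp (4.23 and 4.13 against 5.75 and 5.83). Among the falls, a region near Sord, sorbitol dehydrogenase, had 5.96 and 6.07 in C57BL/6 and 1.20 and 2.65 in Hivep3-/- libraries, a fall by 4.09 (SE 0.38, adjusted p = 8.26e-05). The region nearest to Atp6v0e, in an intron of Ergic1, had 6.23 and 6.07 against 3.84 and 3.00, a fall by 2.73 (adjusted p = 2.61e-05). In both, a region among the more accessible ones became weak, and the mutant replicates differed from each other. The remaining falls were by 1.96 in Nos1 (5.96 and 5.85 against 3.84 and 4.05), by 1.77 near Pgm2 (6.28 and 6.51 against 4.47 and 4.76), by 1.67 in Mapre2 (5.63 and 5.77 against 3.43 and 4.63) and by 1.61 in Il10ra (6.07 and 6.15 against 4.47 and 4.53).

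Changed regions lay away from promoters. Promoters, meaning regions within 1000 bp of any transcript start, made up 37.6% of the tested regions but 9.96% of the rises and 7.10% of the falls of at least 3-fold. Introns took 62.5% of the rises and 52.7% of the falls beside 34.9% of all tested regions, and intergenic sequence took 21.1% and 34.1% beside 23.3%. Median distance to the nearest start site was 30.5 kb for rises and 34.9 kb for falls, against 10.3 kb for all tested regions, and 18% and 20.5% lay more than 100 kb away against 8.31%. Strong regions leaned the same way: 65.6% of them are promoters, yet only 20.7% of the moderate rises and 16.4% of the moderate falls are. In base composition, the median GC content was 46.0% for rises and 48.0% for falls of at least 3-fold, beside 50.6%, and the median count of CpG in 500 bp was 5 and 7, beside 9. Sequence marked as repeat covered 50% or more of the region in 15 rises (5.75%) and 11 falls (1.66%), beside 1427 tested regions (2.59%). Changed regions were therefore distal, poorer in CpG and, for rises, richer in repeats than the tested regions as a whole. Regions that changed at least 3-fold were also weaker. Their median linear mean in the higher group was 10.3 for rises and 11.1 for falls, beside 20.5 for tested regions. The comparison is not matched for strength, and the part of strength in these shares was not tested.

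**Figure D3:**
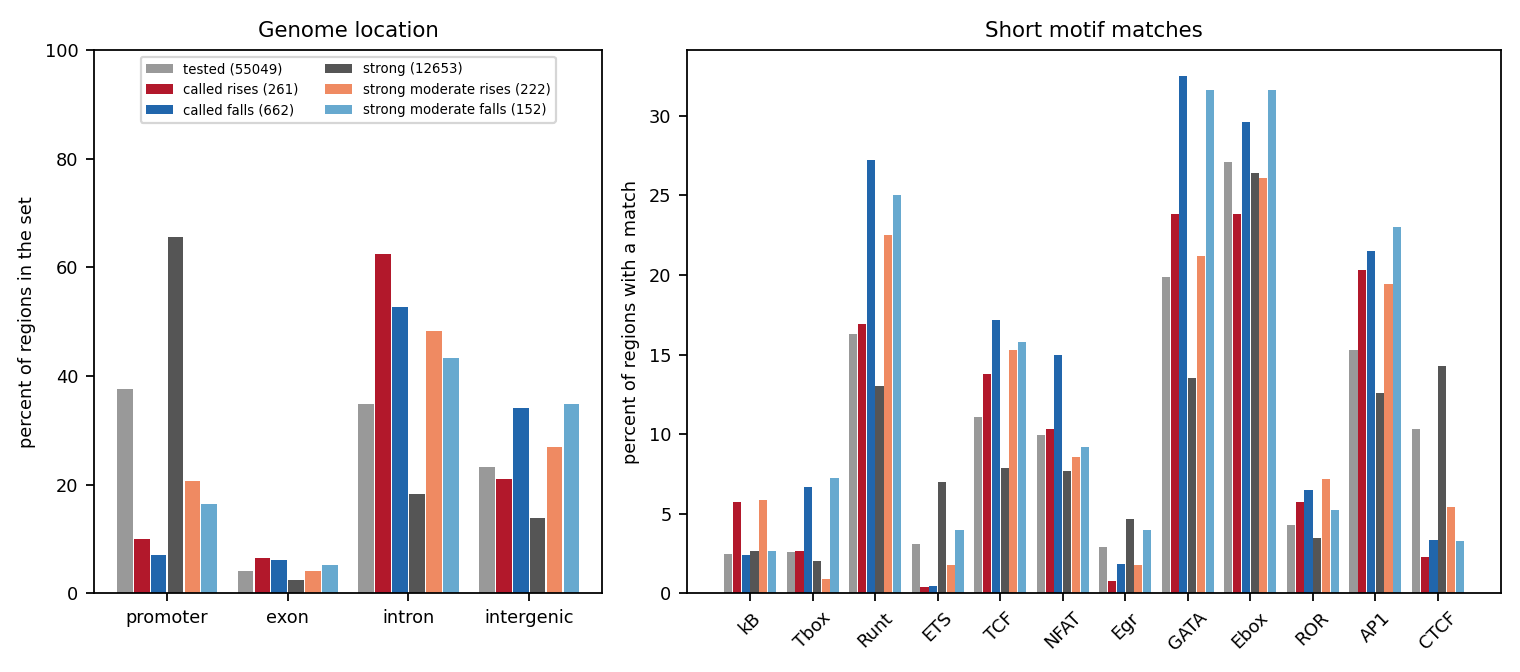
Left, percent of regions (vertical axis) in promoters, exons, introns and intergenic sequence for each set of iNKT2 regions, with the number of regions in brackets. Right, percent of regions in the same sets that hold each short motif.

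Some large changes lay within 1000 bp of the start of a protein-coding gene. Of the 26 large rises in promoters, 4 did so (at Lpar3, Gm13090, Prlr and Setbp1), and of the 47 large falls, 19 did. The share of all tested regions near such starts is not given, so these counts are not read as few or many. The regions named here were picked after the values were seen. At Prlr, the prolactin receptor gene, the values were 2.41 and 1.69 in C57BL/6 and 3.83 and 3.87 in Hivep3-/- libraries, a rise of 1.80 (adjusted p = 0.00195). At Anxa2, which codes for a membrane-binding annexin, a promoter region went from 3.56 and 3.40 to 1.20 and 1.20, a fall by 2.28 (adjusted p = 0.000927). A second Anxa2 promoter region, a strong one, went from 5.91 and 5.90 to 5.00 and 4.77, a fall by 1.02 (SE 0.11, adjusted p = 0.000173). Both Anxa2 regions separated the genotypes with little spread. At Parm1 the promoter went from 4.74 and 4.86 to 2.30 and 2.74, a fall by 2.28 (adjusted p = 0.000353), and at Rhoh, a GTPase of blood cells needed for T cell receptor signalling, it went from 3.77 and 3.92 to 1.74 and 2.12, a fall by 1.92 (adjusted p = 0.000851).

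The genome was also read in windows of 1 Mb, as a description with no test. Of 1983 windows, 1433 held no region with a change of at least 3-fold, and 20 held 5 or more, together 126 of the 923. These 20 windows, picked for their calls, held 13.7% of the called and 1.78% of the tested regions. In 5 of the 20 windows rises and falls occurred together. The fullest window, at Cd247 on chromosome 1, had 12 rises among 72 tested regions, and the next, which holds Nos1 on chromosome 5, had 8 falls and 1 rise among 39. Others were the Nav2 window with 8 falls among 39, the Akap6 window with 7 falls among 34, the Pde3b window with 7 rises among 53, and a pair on chromosome 18 with 6 falls among 20 at Mapre2 and 6 rises among 19 at Setbp1. By chromosome, the largest shares of both directions were on chromosome 18, where 1.35% of 1555 tested regions rose and 1.99% fell. On the X chromosome 7 regions rose (0.703%) and 2 fell (0.201%) among 996. Over all tested regions 0.474% rose and 1.20% fell.

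At the 5 gene loci with the most rises, counting the body of the gene and 10 kb on either side, no region passed the adjusted p downward. All 9 tested regions of Setbp1, a gene for a nuclear protein that binds SET, passed the adjusted p upward, 7 of them by at least 3-fold, with a median change of 1.87. In the Setbp1 intron region with the highest accessibility the values were 5.51 and 5.43 in C57BL/6 and 6.95 and 6.93 in Hivep3-/- libraries, a rise of 1.47 (SE 0.14, adjusted p = 8.05e-05). Cd247 had 12 large and 3 moderate rises among 33 tested regions, with a median of 1.09, and 26 of the 33 passed the adjusted p upward and none downward. At Pde3b, a cAMP and cGMP phosphodiesterase, 6 of 20 regions rose at least 3-fold and all 20 had higher means in Hivep3-/- cells, with a median of 1.34. Camk2b had 5 large rises among 10 regions and a median of 1.37, and Znrf1, an E3 ubiquitin ligase, had 5 among 38 and a median of 0.49. A Znrf1 intron region with the smallest p of that gene had 1.69 and 1.79 against 3.94 and 3.71, a rise of 2.09 (adjusted p = 0.000183). A Pde3b intron region had 1.06 and 0.61 against 3.38 and 3.66, a rise of 2.69 (adjusted p = 0.000621). In each of these the libraries of the genotypes were clear of each other, and the regions of 1 locus are not independent measurements. Single calls there depended on 1 library: Pde3b lost a large rise without the second C57BL/6 or the second Hivep3-/- library (adjusted p = 0.120 and 0.117) and a moderate rise without the first of either (0.114 and 0.112), Setbp1 lost a region without the second of either (0.140 and 0.110), and at Cd247 and Znrf1 regions fell under the accessibility threshold when a Hivep3-/- library was missing.

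Of the 5 loci with the most falls, Mapre2, Nos1, Akap6 and Nav2 had no region that passed the adjusted p upward. At Mapre2, a microtubule end-binding protein, all 16 tested regions had lower means in Hivep3-/- cells, 14 passed the adjusted p downward and 6 fell at least 3-fold, with a median of -1.31. A Mapre2 intron region had 3.77 and 4.01 in C57BL/6 and 0.90 and 0.84 in Hivep3-/- libraries, a fall by 3.02 (SE 0.29, adjusted p = 9.30e-05). At Nos1, neuronal nitric oxide synthase, 6 of 14 regions fell at least 3-fold with a median of -1.56, but 4 of the 6 lost their call when 1 library was left out. The Nos1 regions that kept it included the strong one given above and 1 with 3.94 and 3.82 against 0.51 and 0.44, a fall by 3.40 (adjusted p = 0.00516). Akap6, an anchoring protein for protein kinase A in muscle, had 7 large falls among 21 regions with a median of -0.52. In 1 of the 7 both Hivep3-/- libraries sat at their lowest values, so no size is given for it. In another, singled out after its values were seen, the values were 4.47 and 4.01 against 1.29 and 1.47, a fall by 2.87 (adjusted p = 0.00247). Another Akap6 fall was lost without the first C57BL/6 (adjusted p = 0.200) or the second Hivep3-/- library (0.126). Nav2, a cytoskeletal gene of axon growth, had 7 among 32 with a median of -0.48, and 1 of its regions went from 3.23 and 3.13 to -0.13 and 0.10, a fall by 3.20 (adjusted p = 0.000417), while another lost its call without the first C57BL/6 library (adjusted p = 0.108). The read-through annotation Gm20388, which spans many genes, had 8 falls and 1 rise among 339 regions, with 17 past the adjusted p upward and 41 downward, and is not described further. Of the regions given here with their values, the mutant libraries were the lower ones every time.

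**Figure D4:**
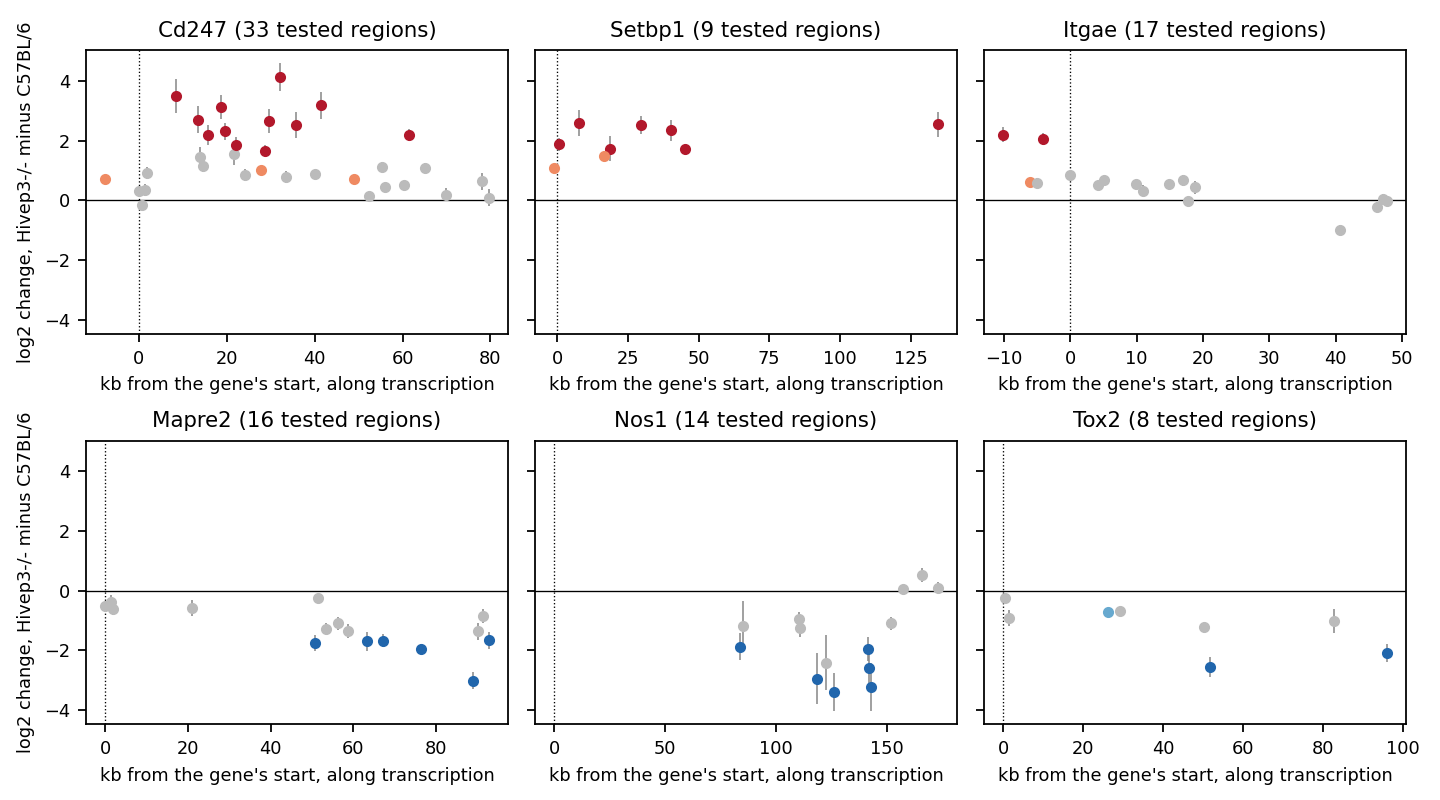
Log2 change (Hivep3-/- minus C57BL/6, vertical axis) of every tested iNKT2 region of 6 loci against distance in kb from the gene's start along transcription (horizontal axis), with standard errors. Dark colours mark changes of at least 3-fold, light colours strong regions changed 1.5 to 3-fold, and grey all other regions.

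At strong regions, the moderate changes described here were taken for their small p, a choice that itself favours regions with close replicates. Downstream of Socs1, a feedback inhibitor of JAK and STAT signalling, the values were 6.10 and 6.16 in C57BL/6 and 7.02 and 7.01 in Hivep3-/- libraries, a rise of 0.88 (SE 0.07, adjusted p = 2.78e-05). The replicates differed by far less than the genotypes did. Near Hspb8, a small heat shock protein, they were 4.64 and 4.54 against 6.02 and 6.07, a rise of 1.46 (adjusted p = 3.62e-05). Within Sh3bp5, which codes for a protein that binds the kinase BTK, they were 4.64 and 4.72 against 6.17 and 6.24, a rise of 1.52 (adjusted p = 8.27e-05). Near Ly6e, a GPI-anchored protein of immature thymocytes, they were 5.20 and 5.23 against 6.15 and 6.33, a rise of 1.03 (adjusted p = 7.73e-05). At the promoter of Pgk1, a glycolytic kinase on the X chromosome, they were 6.83 and 6.92 against 8.02 and 7.99, a rise of 1.13 (SE 0.06, adjusted p = 4.05e-06). The Pgk1 promoter had changes of 1.05 in iNKT1 and 1.24 in iNKT17 cells as well, and the differences between subsets did not pass (adjusted p = 0.677 and 0.592). A Pgk1 promoter is a common part of gene-targeting cassettes, and whether the Hivep3 allele carries one is not given in the sources used here, so that its part in this rise was not tested.

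Among moderate falls, a region within Coro2b, a coronin that binds actin, went from 6.57 and 6.54 in C57BL/6 to 5.35 and 5.24 in Hivep3-/- libraries, a fall by 1.26 (SE 0.09, adjusted p = 2.02e-05). A region in Tmem266 went from 6.41 and 6.56 to 5.06 and 4.99, a fall by 1.46 (adjusted p = 2.14e-05). In an intron of Pde2a, a phosphodiesterase stimulated by cGMP, the values 7.44 and 7.45 went to 6.61 and 6.67, a fall by 0.81 (SE 0.07, adjusted p = 3.04e-05). These 3 regions were among the most accessible of the changed ones, and the genotypes did not overlap. At Clec2i, a ligand of the NK receptor gene cluster, an intron region went from 5.96 and 6.13 to 4.69 and 4.78, a fall by 1.31 (adjusted p = 7.79e-05). Its promoter region, outside the rule and chosen after its values were seen, went from 4.46 and 4.15 to 1.66 and 2.08, a fall by 2.43 (adjusted p = 2.78e-05). Falls by 0.92 near Atp6v1g2 (6.16 and 6.31 against 5.24 and 5.39) and by 0.96 near Phb (5.63 and 5.81 against 4.72 and 4.79) complete the rule's list.

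Gene lists were read by their tested regions, which lie in the gene body or within 10 kb, beside the background of 0.474% rises and 1.20% falls, of 25.3% with an unadjusted p under 0.05, of 8.26% past the adjusted p upward and 8.16% downward, and of 1.75% moderate rises and 1.20% moderate falls among strong regions. Under assignment to the nearest start site within 100 kb some lists gained or lost calls: stage 0 falls went from 6 to 1, T cell receptor falls from 2 to 5, iNKT17 rises from 2 to 0, type 2 falls from 0 to 2 and falls at genes the study names from 7 to 3. The median turned from 0.10 to -0.06 for iNKT17 genes, from 0.03 to -0.01 for chemokine receptors and from 0.04 to -0.04 for the SLAM family. T cell receptor genes come first because their signal selects iNKT cells in the thymus. The list of 30 genes of the receptor complex and its signalling had 13 large rises (2.81%) and 2 large falls (0.432%) among 463 regions, 12 of the rises being at Cd247, and 6 moderate rises and 2 moderate falls among 110 strong regions. Its median change was 0.11, and 74 regions passed the adjusted p upward and 30 downward. Cd247 alone held 26 of the 74 and 3 of the 6 moderate rises. A strong region 1.57 kb upstream of Trac, the alpha chain constant gene, had 4.76 and 4.71 in C57BL/6 and 5.97 and 5.61 in Hivep3-/- libraries, a rise of 1.05 (adjusted p = 0.000607). An intron of Nfatc1, a calcium-regulated factor, had 5.13 and 5.17 against 6.06 and 5.71, a rise of 0.74 (adjusted p = 0.00833). Both regions were higher in both mutant libraries. Against this stood Csk, the kinase that holds Lck inactive, with 5.76 and 5.77 against 5.10 and 4.77, a fall by 0.83 (adjusted p = 0.000775), and a region near Zap70, the kinase recruited to the zeta chain, with 6.20 and 6.02 against 5.26 and 5.42, a fall by 0.77 (adjusted p = 0.00205). A region in Fyn that rose by 0.61 (5.17 and 5.10 against 5.98 and 5.52) lost its call without the second C57BL/6 library (adjusted p = 0.132) or the first Hivep3-/- library (adjusted p = 0.195).

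NF-κB signalling is the pathway with which HIVEP proteins share their DNA element. Its list of 21 genes had no large change among 167 regions in limma, where 52 (31.1%) had an unadjusted p under 0.05. Its median was 0.16, with 30 regions (18%) past the adjusted p upward and 2 (1.20%) downward. The only moderate change among 59 strong regions was a promoter-class region at Nfkb2 with 5.07 and 5.54 against 5.96 and 6.21, a rise of 0.78 (adjusted p = 0.0194), which lost its call without the first C57BL/6 library (adjusted p = 0.183) or the second Hivep3-/- library (0.123). AP-1 and Bach factors gave 3 large rises (2.52%) and 0 falls among 119 regions, with a median of 0.17. All 3 rises lay at Fosl2, an AP-1 subunit, where an exon region had 2.30 and 3.14 against 4.53 and 4.98, a rise of 2.03 (adjusted p = 0.00207). A Fosl2 region fell under the accessibility threshold without the second Hivep3-/- library. An intron of Bach2, a repressor that competes with AP-1, had 4.98 and 4.82 against 5.62 and 5.70, a rise of 0.76 (adjusted p = 0.00165). The groups were apart at both genes, whereas a rise of 0.61 at Jun (5.51 and 5.58 against 6.02 and 6.29) was lost without either C57BL/6 library (adjusted p = 0.228 and 0.182) or the second Hivep3-/- library (0.266).

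Type 2 cytokines are the known products of iNKT2 cells. In the list of 17 genes of the type 2 programme, 2 regions rose (1.61%) and 0 fell at least 3-fold among 124, and 47 strong regions had 2 moderate rises and 2 moderate falls. All 4 rises were at Ccr8, the receptor for CCL1 found on type 2 helper and regulatory T cells, whose promoter region had 4.82 and 4.64 in C57BL/6 and 5.81 and 5.85 in Hivep3-/- libraries, a rise of 1.11 (adjusted p = 0.000682). A region about 6 kb from the Ccr8 start had 3.21 and 3.38 against 5.43 and 5.24, a rise of 2.04 (SE 0.16, adjusted p = 2.78e-05). The falls were in the cytokine cluster itself. In an intron of Il4 the values were 6.29 and 6.31 against 4.96 and 5.42, a fall by 1.11 (SE 0.14, adjusted p = 0.000540), and near Il13 they were 6.20 and 6.24 against 5.08 and 5.53, a fall by 0.91 (adjusted p = 0.00287). The controls were tight and the first Hivep3-/- library was the lowest at both cytokine genes. The Il4 promoter region at the gene's start had 5.54 and 5.43 against 4.68 and 4.67, a change of -0.81 (adjusted p = 0.0826), and the strongest region nearby, with 7.48 and 7.55 against 7.43 and 7.37, did not pass (adjusted p = 0.514). These further regions were picked after their values were seen.

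The list of 15 iNKT2 genes had 1 large rise (0.437%) and 2 large falls (0.873%) among 229 regions, with a median of -0.05, and 10 regions passed upward and 21 downward. The falls were at Plac8, a small cysteine-rich protein, whose promoter went from 3.95 and 3.84 to 1.66 and 2.15, a fall by 1.99 (adjusted p = 0.00539), and whose upstream region went from 4.83 and 4.48 to 2.89 and 2.90, a fall by 1.76 (adjusted p = 0.00235). All 4 tested regions of Plac8 passed downward, with a median of -1.49. The rise was in an intron of Il6ra, with 1.13 and 0.84 against 2.64 and 2.77, a change of 1.72 (adjusted p = 0.0252), and was lost without the second C57BL/6 (adjusted p = 0.145) or the second Hivep3-/- library (0.107). Among the 7 markers used above for the label, 0 of 147 regions changed 3-fold, and 1 passed the adjusted p upward and 13 downward in limma, 8 of the 13 at Zbtb16, beside 16.4% of all tested regions that passed in either direction. At Zbtb16 the summed signal was 3326 and 3241 in C57BL/6 and 2998 and 3002 in Hivep3-/- libraries, lower in the mutants by a small margin.

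Genes of iNKT1 cells, which make IFN-γ under T-bet, had the largest share of falls of any list, with 6 (9.38%) among 64 regions and 0 rises. The median was -0.12, and 18 regions passed downward and 6 upward. At the Ifng promoter the values were 4.93 and 4.69 in C57BL/6 and 2.60 and 2.85 in Hivep3-/- libraries, a fall by 2.08 (SE 0.24, adjusted p = 0.000285). At the start of Nkg7, a cytotoxic granule protein, they were 3.89 and 3.61 against 1.44 and 1.47, a fall by 2.29 (adjusted p = 0.000197), and at the second Nkg7 region, whose sequence is printed above, 3.29 and 3.16 against 1.98 and 1.02, a fall by 1.73 (adjusted p = 0.00418). Near Cxcr3, a chemokine receptor of type 1 cells, they were 4.72 and 4.77 against 3.28 and 2.98, a fall by 1.62 (adjusted p = 0.00272), and near Klrb1c, which codes for NK1.1, 2.38 and 2.39 against 0.37 and 1.02, a fall by 1.69 (adjusted p = 0.00202). The mutant libraries were the lower ones in each of these regions. A fall by 1.70 upstream of Tbx21, the T-bet gene (2.91 and 2.55 against 0.06 and 2.00), was lost without the first C57BL/6 library (adjusted p = 0.136).

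The 6 iNKT1 markers Tbx21, Il2rb, Ifng, Nkg7, Xcl1 and Klrd1 all had regions, and together they summed to 926 and 940 in C57BL/6 and to 852 and 872 in Hivep3-/- iNKT2 libraries, against 2232 in C57BL/6 iNKT1 cells. Of their 27 tested regions, 4 fell at least 3-fold, 11 passed the adjusted p downward and 4 upward. Il2rb was the most abundant and did not follow the others, with a mean sum of 580 in C57BL/6 and 617 in Hivep3-/- cells. Ifng went from 41.9 to 12.8, Tbx21 from 112 to 76.7, Nkg7 from 153 to 120 and Xcl1 from 27.6 to 17.6, while Klrd1 was 18.7 and 17.6. In iNKT1 cells of C57BL/6 mice the same genes had sums of 155, 463, 543, 204 and 194. In bulk samples, fewer cells of another type and less accessibility per cell cannot be told apart, and the part of iNKT1 cells within the gate in these falls was not tested.

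Genes of iNKT17 cells had 2 large rises (2.13%) and 2 large falls (2.13%) among 94 regions and a median of 0.10. The rises were in Rora, the retinoid-related receptor that supports the type 17 programme, where 1 intron region had 2.10 and 2.19 in C57BL/6 and 3.96 and 4.10 in Hivep3-/- libraries, a change of 1.88 (adjusted p = 0.00871). The other large rise in Rora was lost without the first C57BL/6 (adjusted p = 0.155) or the second Hivep3-/- library (0.121). A strong Rora region had 5.83 and 5.85 against 6.55 and 6.46, a rise of 0.66 (SE 0.08, adjusted p = 0.000416). At Blk, a Src family kinase, an intron had 3.30 and 3.57 against 0.20 and 0.66, a fall by 3.01 (adjusted p = 0.000132), and a strong region near Il17a had 6.09 and 5.98 against 5.01 and 5.06, a fall by 1.00 (SE 0.11, adjusted p = 0.000161). Over the whole list, 16 regions (17.0%) passed the adjusted p upward and 8 (8.51%) downward, beside 8.26% and 8.16% of all tested regions. Regions of the type 17 programme thus passed in either direction, with more of them upward.

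T lineage transcription factors, 30 genes, had 7 large rises (1.71%) and 6 large falls (1.46%) among 410 regions, with 6 moderate rises and 1 moderate fall among 81 strong regions and a median of 0.09. Upward, 79 regions passed the adjusted p, and downward 30. The values at an intron of Ikzf2, which codes for Helios, were 2.15 and 1.39 in C57BL/6 and 4.40 and 4.22 in Hivep3-/- libraries, a rise of 2.54 (SE 0.25, adjusted p = 0.000123). At Satb1, a chromatin organizer of thymocytes, they were 4.94 and 4.72 against 5.92 and 5.67, a rise of 0.96 (adjusted p = 0.00325). An intron of Bcl11b, a factor of T cell commitment, had 5.26 and 5.41 against 5.92 and 6.17, a rise of 0.71 (adjusted p = 0.00208). At Ets1 the region printed above had 6.27 and 6.44 against 6.85 and 7.04, a rise of 0.59 (adjusted p = 0.00238). Both mutant libraries were the higher ones in each of these 4 regions. Ikzf2 went in both directions, however, since besides its 3 large rises an exon region had 4.01 and 3.72 against 2.03 and 2.41, a fall by 1.64 (adjusted p = 0.000451), and an intron region 3.58 and 3.94 against 1.79 and 2.15, a fall by 1.79 (adjusted p = 0.00512), both chosen after their values were seen. In Tox2, an HMG-box factor, 6 of 8 regions passed downward with a median of -0.97. An intron region there had 3.42 and 3.48 against 0.78 and 1.02, a fall by 2.55 (adjusted p = 0.000655), and the strong region printed above had 6.42 and 6.50 against 5.77 and 5.71, a fall by 0.72 (adjusted p = 0.00153). A fall by 2.31 in Lef1 (3.56 and 3.69 against 0.51 and 2.12) was lost without either C57BL/6 library (adjusted p = 0.133 and 0.157) or the first Hivep3-/- library (0.213).

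Stage 0 and immature thymocyte genes had 3 large rises (2.42%) and 6 large falls (4.84%) among 124 regions, 3 moderate rises among 35 strong regions and a median of 0.09, with no region at Cd8a, Cd8b1 or Rag1. The moderate rises were near Nr4a1, an orphan receptor induced by the T cell receptor. A region just past its 3′ end had 4.29 and 4.64 in C57BL/6 and 5.70 and 6.04 in Hivep3-/- libraries, a rise of 1.41 (adjusted p = 0.00226). The neighbouring region, with a rise of 1.31 (4.51 and 4.67 against 5.59 and 6.21), was lost without the second Hivep3-/- library (adjusted p = 0.117), and another, 3.88 kb from the start, with a rise of 0.64 (5.18 and 5.08 against 5.72 and 5.82), without any 1 of the 4 (adjusted p from 0.108 to 0.195). Of the falls, 3 were at Ccr9, a thymic homing receptor, where 1 exon region had 3.64 and 3.58 against 0.51 and 0.94, a fall by 2.88 (adjusted p = 0.00128). Chemokine receptors and homing genes together had 4 large rises (3.03%) and 4 large falls (3.03%) among 132 regions and a median of 0.03. Besides Ccr8 the rises were upstream of Itgae, the αE integrin of mucosal T cells, within exons of Ncbp3, where 1 region had 2.57 and 2.91 against 4.77 and 4.82, a rise of 2.05 (SE 0.20, adjusted p = 9.30e-05). At Itgae 10 of 17 regions passed upward and 1 downward.

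Cytokine receptors had the highest median of any list, 0.20, with 49 regions past the adjusted p upward and 14 downward among 204, but 1 large rise (0.490%) and 3 large falls (1.47%). The 2 moderate rises among 40 strong regions were in Tgfbr2, a subunit of the TGF-β receptor, with 5.59 and 5.77 in C57BL/6 and 6.69 and 6.72 in Hivep3-/- libraries, a rise of 1.03 (SE 0.12, adjusted p = 0.000316), and with 5.83 and 6.05 against 6.60 and 6.71, a rise of 0.72 (adjusted p = 0.00363). A second Il10ra region had 3.59 and 3.26 against 1.93 and 1.69, a fall by 1.62 (adjusted p = 0.00283), beside the strong one given above. Thus regions of the IL-10 receptor gene fell while regions of the TGF-β receptor gene rose. The remaining fall, by 1.98 in Il12rb2 (2.79 and 2.28 against 0.90 and 0.20), was lost without the second Hivep3-/- library (adjusted p = 0.121) and not tested without the first C57BL/6 library. At Il10 itself, chosen after its values were seen, all 3 tested regions passed downward, with changes from -1.45 to -1.12.

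Costimulatory and inhibitory receptors had 0 large changes among 119 regions in limma, where 34 (28.6%) had an unadjusted p under 0.05, and a median of -0.02. Their 27 strong regions had 1 moderate rise and 1 moderate fall. The Tnfrsf4 promoter, of the receptor OX40, had 5.51 and 5.21 in C57BL/6 and 6.41 and 6.47 in Hivep3-/- libraries, a rise of 1.08 (adjusted p = 0.00673). Near Lag3, an inhibitory receptor, a region had 6.19 and 6.21 against 5.31 and 5.42, a fall by 0.84 (adjusted p = 0.0104). The Bcl2 family likewise had 0 among 69 in limma, with 20 (29.0%) under an unadjusted p of 0.05, a median of 0.05 and 1 moderate fall among 28 strong regions, near Bbc3, which codes for the death promoter PUMA (5.90 and 5.71 against 5.33 and 5.11, a fall by 0.59, adjusted p = 0.00542). At any size, 11 regions of the Bcl2 family (15.9%) passed the adjusted p upward and 2 (2.90%) downward. Cell cycle genes had 0 among 137 in limma, with 34 (24.8%) under an unadjusted p of 0.05, a median of -0.07 and no moderate change among 42 strong regions.

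In the smaller lists, HIVEP family and microRNA processing genes had 14 of 118 regions (11.9%) past the adjusted p upward and 2 (1.69%) downward. They had a median of 0.06, 0 large rises and 1 large fall (0.847%). The fall, by 1.95 in Drosha (2.98 and 2.83 in C57BL/6 against 0.90 and 1.02 in Hivep3-/- libraries), was lost without the first C57BL/6 library (adjusted p = 0.126), and an intron of Ago2, the slicing Argonaute, had 5.05 and 5.15 against 5.79 and 5.74, a rise of 0.66 (adjusted p = 0.0117). Class IIa histone deacetylases had 1 large fall (1.85%) among 54 and a median of -0.06. That fall lay upstream of Hdac7 in an exon of Vdr, with 2.91 and 2.95 against 0.20 and 0.35, a change of -2.66 (adjusted p = 0.000589), and Hdac4 had a moderate rise of 0.69 (5.71 and 5.87 against 6.62 and 6.33, adjusted p = 0.00253). SLAM family genes, which signal between thymocytes during iNKT selection, had 2 large falls (3.77%) among 53 and a median of 0.04. Near Slamf7 the values were 3.81 and 3.31 against 0.90 and 1.10, a fall by 2.55 (adjusted p = 9.30e-05), but the second fall, in its intron (2.67 and 2.77 against 2.03 and -0.41), leaned on the low second Hivep3-/- library and was lost without it (adjusted p = 0.441) or without either C57BL/6 library (0.207 and 0.233). Interferon response genes had 1 large fall (2.50%) among 40, at Isg20 (4.71 and 4.37 against 2.20 and 2.45, a fall by 2.22), lost without the first C57BL/6 library (adjusted p = 0.120), and a median of 0.10. B cell genes had 0 among 17 in limma, with 2 (11.8%) under an unadjusted p of 0.05 and a median of -0.07, and no region at Blnk or Ms4a1. Myeloid genes had 0 among 16, with 2 (12.5%) under an unadjusted p of 0.05 and a median of -0.06. The 27 genes that the study itself names for Hivep3 loss had 12 large rises (3.40%) and 7 large falls (1.98%) among 353 regions and a median of -0.04, with all 12 rises at Cd247. The study takes up Cd247, Ccr9 and Drosha from these libraries, so for them the list is no independent evidence.

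**Figure D5:**
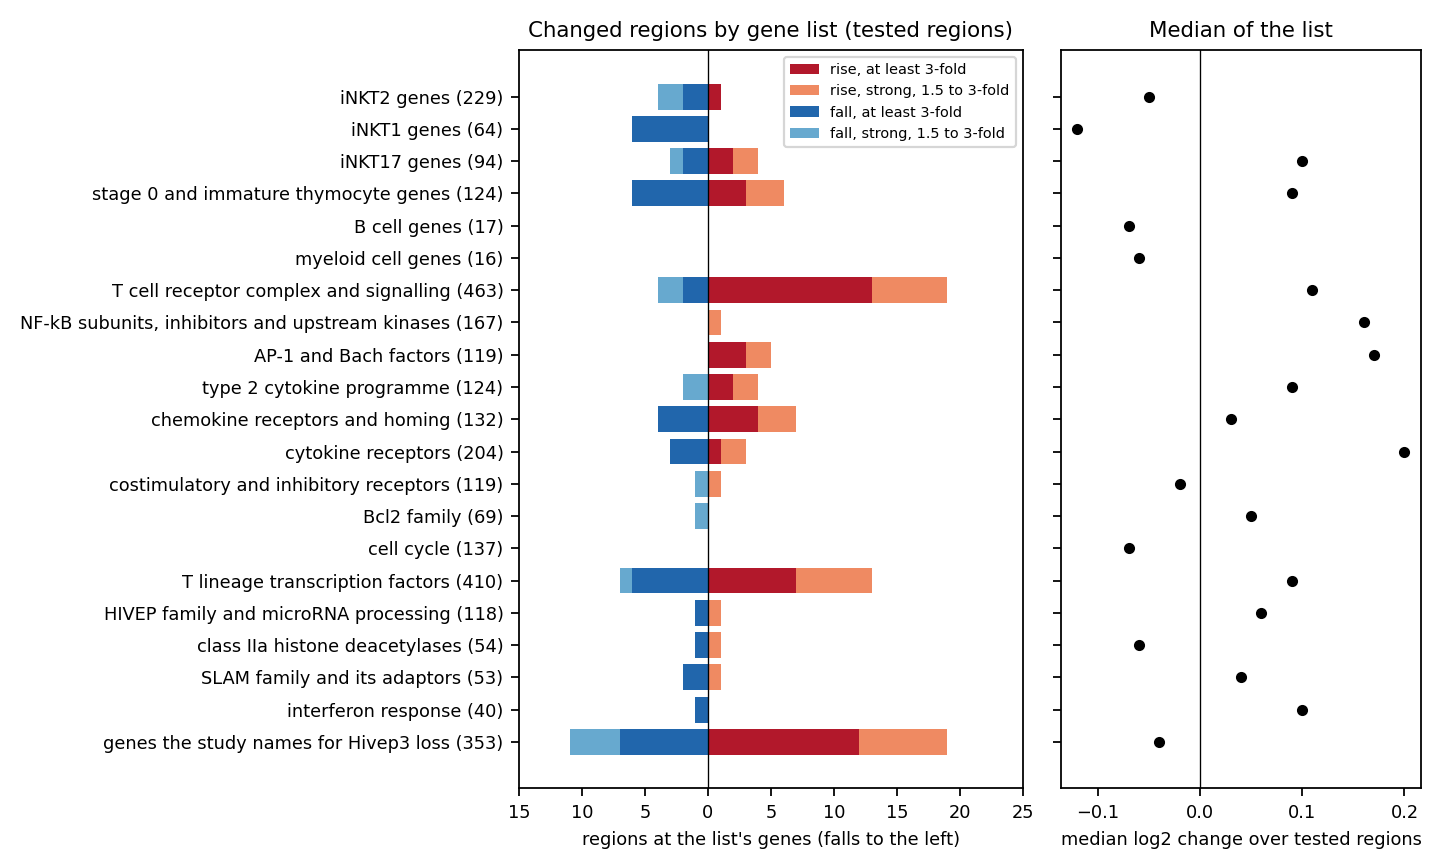
Left, number of iNKT2 regions that rose (to the right) or fell (to the left) at the genes of each list, with tested regions in brackets. Right, median log2 change (Hivep3-/- minus C57BL/6) over the tested regions of the list.

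Short DNA elements were counted in the changed regions, as a description with no test. The κB letters GGANTTTCC were found in 15 rises of at least 3-fold (5.75%) and 16 falls (2.42%), beside 2.45% of tested regions. At strong regions 13 moderate rises (5.86%) and 4 moderate falls (2.63%) held them, beside 2.67%. The share was above the background in rises of either size and near it in falls. The moderate rises with these letters include a pair of T cell receptor alpha variable promoters. That pair shares 98.7% of its 30-base words, so the 13 are not all separate observations. One such region is the Tnik intron printed above, of a kinase that works with TRAF2 and TCF proteins, with 5.58 and 5.52 in C57BL/6 and 6.38 and 6.33 in Hivep3-/- libraries, a rise of 0.80 (SE 0.10, adjusted p = 0.000383). Another is near Fam110a, with 5.46 and 5.53 against 6.41 and 6.35, a rise of 0.88 (SE 0.09, adjusted p = 0.000133). One more, in an intron of Itpk1, an inositol phosphate kinase, had 5.38 and 5.63 against 6.21 and 6.47, a rise of 0.84 (adjusted p = 0.00507). All 3 were picked after their values were seen, so their close replicates and separate genotypes are no further support.

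T-box letters AGGTGTGA, the core that T-bet and Eomes bind, were more frequent in falls. They were in 44 falls of at least 3-fold (6.65%) and 7 rises (2.68%), beside 2.61%, and at strong regions in 11 moderate falls (7.24%) and 2 moderate rises (0.901%), beside 2.00%. Besides Nkg7, Il4 and Pde2a, an intron of Nebl held them, with 6.61 and 6.58 in C57BL/6 and 5.57 and 5.16 in Hivep3-/- libraries, a fall by 1.23 (SE 0.13, adjusted p = 0.000150). Near Bcl2l11 a distal region with the same letters had 6.73 and 6.87 against 5.99 and 6.10, a fall by 0.75 (adjusted p = 0.00120). These regions were picked after their values were seen. GATA letters were in 32.5% of large and 31.6% of moderate falls against 23.8% and 21.2% of rises, beside 19.9% of tested and 13.5% of strong regions. Runt letters were in 27.2% and 25.0% of falls and in 16.9% and 22.5% of rises, beside 16.3% and 13.0%. AP-1 letters were frequent in either direction, with 20.3% of large rises and 21.5% of large falls beside 15.3%. CTCF letters AGNNGGCGC and ETS letters CCGGAAGT, which favour promoters, were rare, with 2.30% and 0.383% of large rises beside 10.3% and 3.12%. Promoters made up 9.96% of large rises and 7.10% of large falls, beside 37.6% of tested regions. The shares of all these letters are not matched for location, and its part in them was not tested.

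Whether the genotype change differed between subsets was tested by an interaction term, which uses the iNKT2 libraries on 1 side each time. Regions in which the iNKT2 change differed from the iNKT1 change at least 3-fold numbered 1836 of 59926 (3.06%), and from the iNKT17 change 617 of 60297 (1.02%). This model treats libraries as independent although subsets shared a pool and a reaction, and with libraries of 1 genotype and replicate number correlated as a pool, a setting added after the data were seen, the counts were 2088 and 867. The iNKT17 count fell to 302 when the second C57BL/6 iNKT2 library was left out. Where regions stood in the other subsets can be given side by side: the 662 falls had a median value of 3.46 in C57BL/6 and 1.27 in Hivep3-/- iNKT2 cells, 2.24 and 2.09 in iNKT1 cells, and 1.07 and 0.46 in iNKT17 cells. For the 261 rises the medians were 1.28 and 3.33 in iNKT2, 1.88 and 2.17 in iNKT1, and 2.29 and 3.14 in iNKT17 cells.

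Named genes fell into those whose change differed between subsets and those for which no difference passed. At Il17a the iNKT2 fall by 1.00 stood against a change of 1.02 in iNKT1 cells, a difference of -2.02 (adjusted p = 9.93e-05). At the Ifng promoter the iNKT1 change was -0.07 and the difference -2.01 (adjusted p = 0.00486), and at the Nkg7 start it was 0.00 and the difference -2.29 (adjusted p = 0.00314). At these regions iNKT2 accessibility fell while the iNKT1 change was near 0 or upward. At Hspb8 the iNKT1 change was -0.21 and the difference 1.67 (adjusted p = 0.000498), and at Sh3bp5 they were -0.09 and 1.61 (adjusted p = 0.00113). Setbp1 and Mapre2 also passed at single regions, with differences from iNKT17 of 1.55 (adjusted p = 0.00250) at a Setbp1 intron and of -3.19 (adjusted p = 0.00456) at a Mapre2 intron. At Rell1 the iNKT1 and iNKT17 changes were -5.83 and -5.03 and no difference passed (adjusted p = 0.713 and 0.268). At the Camk2b region given above they were 2.35 and 4.30 (adjusted p = 0.373 and 0.807). A difference that does not pass does not show that the subsets changed alike.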

How the data were processed

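ATAC-seq of 12 libraries from 6 groups was read from the deposited table, in which the authors give log2 normalized transposase insertions per kb for 63309 regions. According to the submitters' processing notes, reads were trimmed to 50 bp with Trimmomatic 0.39 and mapped to mm10. No library column was left out. A single limma 3.58.1 model (R 4.3.3) took all 12 libraries with 1 mean per group and moderated variances that follow a trend (residual degrees of freedom 6, prior 7.17), and p-values were adjusted by the Benjamini-Hochberg method over the 55049 regions tested. Interaction terms tested differences between subsets, with a threshold of 3-fold on the difference for counts and the adjusted p alone for named regions. With 2 libraries against 2, the smallest exact permutation p is 0.333, so limma's moderated p is used. Genes came from GENCODE vM21 on GRCm38.p6, and repeats are the lower-case letters of the RefSeq genome.

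Named regions are those of Hivep3, the 6 largest rises and falls with no library at its lowest value, the 6 moderate rises and falls of smallest p at strong regions, the 5 loci with most rises and with most falls, up to 3 regions for each of 21 lists, and the fullest 1 Mb windows. Members and lists were chosen with earlier results of these data known. The lists were iNKT2 genes, iNKT1 genes, iNKT17 genes, stage 0 and immature thymocyte genes, B cell genes, myeloid cell genes, T cell receptor complex and signalling, NF-κB subunits, inhibitors and upstream kinases, AP-1 and Bach factors, type 2 cytokine programme, chemokine receptors and homing, cytokine receptors, costimulatory and inhibitory receptors, Bcl2 family, cell cycle, T lineage transcription factors, HIVEP family and microRNA processing, class IIa histone deacetylases, SLAM family and its adaptors, interferon response, and genes the study names for Hivep3 loss. Alternatives changed the accessibility filter, pseudocount, normalization, variance model, libraries, thresholds and assignment of regions to genes. A set of marker genes and 1 strong region are not reported here. The pipeline was tested on simulated data. Python 3.11.15, numpy 2.4.6, pandas 2.3.3, scipy 1.17.1, pysam 0.24.0, samtools 1.23.1 and matplotlib 3.10.9 were used.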

Additional observations from a re-analysis of the deposited data

Results flagged for a closer look

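A test of the difference between subsets singled out named regions whose change on Hivep3 loss in iNKT2 cells was not that of another subset. Values are the log2 change in iNKT2 minus the log2 change in iNKT1 cells unless iNKT17 is named, each with its adjusted p. Lower in iNKT2 were Il17a with -2.02 (9.93e-05), Slamf7 with -2.40 (0.00224), Sord with -2.68 (0.0119), Plac8 with -2.25 (0.0260), Nkg7 with -2.29 (0.00314), Il10ra with -1.68 (0.0224) and Ifng with -2.01 (0.00486). Also lower were Hif1a with -3.02 (0.0331), Atp6v0e with -1.76 (0.00469), BC004004 with -2.49 (0.0164) and Mapre2 with -2.11 (0.00943). Higher in iNKT2 were Hspb8 with 1.67 (0.000498), Igsf23 with 1.82 (0.00474), Rora with 1.98 (0.0503), Sh3bp5 with 1.61 (0.00113), Drosha with 2.27 (0.0701) and Satb1 with 1.67 (0.00203). The Drosha region had changes of -1.95 in iNKT2 and -4.21 in iNKT1 cells, and Satb1 had 0.96 and -0.71. Against iNKT17 cells, Sord gave -2.29 (0.0593), Blk -2.60 (0.0137) and Tcrg-C1 2.30 (0.00250). Only regions tested in both subsets were read here, and those named only through a locus, a promoter or the X chromosome were left aside, among them a Mapre2 intron with -3.19 against iNKT17 (0.00456).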

How the results depend on the processing

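The number of iNKT2 regions with a change of at least 3-fold, 923 (261 rises, 662 falls), followed the treatment of low values. It was 1551 without the accessibility filter (598 rises) and 523 (135 rises, 388 falls) with a linear mean of at least 10. With a linear mean of at least 5 over all compared libraries it was 655 (170 rises, 485 falls). With a pseudocount of 1 it was 594 (147 rises), with 5 it was 68 (16 rises, 52 falls), and a threshold of 2-fold gave 2812 (1195 rises, 1617 falls). Strong regions changed 1.5 to 3-fold, 374 in all, became 1040 (550 rises, 490 falls) with strong from 30 and 59 (50 rises, 9 falls) with strong from 100. Differences from iNKT1, 1836, became 1214 and 184 with pseudocounts of 1 and 5, and differences from iNKT17, 617, became 32 with a pseudocount of 5.

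Leaving out 1 library in turn gave 807 to 940 regions of at least 3-fold (272 to 329 rises, 517 to 668 falls), 351 to 414 moderate changes (200 to 239 rises, 151 to 183 falls), 1269 to 1942 differences from iNKT1 and 302 to 673 from iNKT17. The library left alone in its group is then assumed to vary like the other groups. Regions past the adjusted p at any fold, 9036, became 4308 to 6302. Assigning regions to the nearest start site within 100 kb gave 87 calls summed over the lists in place of 91. In these sums a gene that stands on several lists is counted in each. Calls were both lost and gained: falls went from 6 to 1 at stage 0, from 6 to 8 at iNKT1, from 6 to 4 at T lineage, from 7 to 3 at study genes, from 2 to 5 at T cell receptor, from 0 to 2 at type 2, from 0 to 1 at NF-κB and Bcl2, from 1 to 0 at HIVEP and from 1 to 2 at interferon genes, and rises from 2 to 0 at iNKT17 genes. No named region turned its direction under any setting. For changes of at least 3-fold, leaving out 1 library could not turn it, because the genotypes overlapped in none of these 923 regions. Steady direction is therefore no support for them. With a pseudocount of 5, 24 of 137 such named regions still passed both thresholds.

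With the replicate number as a block there were 976 regions of at least 3-fold, 384 moderate changes, 2106 differences from iNKT1 and 879 from iNKT17, while regions past the adjusted p at any fold rose to 13628. With libraries of 1 genotype and number as a correlated pool there were 2088 differences from iNKT1 and 867 from iNKT17. This setting for the differences, and every setting for the counts at any fold, was added after seeing the data. Deviations of same-numbered iNKT2 libraries correlated with 0.247 between the genotypes, but the libraries share only a number, so the paired fit is an alternative.

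There were 2 libraries a genotype, depth is not known, and which animals made up a pool is not recorded.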

Other observations

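Some moderate rises at strong regions sat in copies of duplicated genes, and they were chosen after their values were seen. At Tmem254a, Tmem254b and Tmem254c on chromosome 14, 6 promoter regions rose by 0.63 to 0.77 in Hivep3-/- iNKT2 cells. The region at the Tmem254a start had 6.55 and 6.43 in C57BL/6 and 7.06 and 7.21 in Hivep3-/- libraries (adjusted p = 0.00470). Between copies, 98.7% or more of the 30-base words of such a region recur, so reads cannot be assigned to 1 copy and the 6 are not separate observations. Of the 6, 1 at Tmem254c lost its call without the first C57BL/6 (adjusted p = 0.101) or the second Hivep3-/- library (0.123). At Tcte3, Ermard and Gm3435 on chromosome 17, the Tcte3 promoter had 6.95 and 6.93 against 7.51 and 7.73, a rise of 0.68 (adjusted p = 0.000417), and its copy at Gm3435 shares 98.5% of the words. A pair of T cell receptor alpha variable promoters with κB letters rose by 0.76 and 0.91, with 5.20 and 5.36 against 6.06 and 6.02, and with 5.00 and 5.19 against 5.97 and 6.04, and they share 98.7% of their words.

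A window around Tgfbr2 held 4 moderate rises among 12 strong regions and no moderate fall, beside 1.75% rises and 1.20% falls over all strong regions. Of the 4, 1 lost its call without the first C57BL/6 library (adjusted p = 0.147). Windows at Tmem254c, Nr4a1 and Tcte3 also held 4 rises and 0 falls, and that at Sez6l 3 and 1. Others leaned to falls or were even, with 1 rise and 3 falls at Mbp and at Tle3, and 2 and 2 at Abcg1. Besides those at the gene, a region 194 kb away had 6.03 and 5.94 in C57BL/6 and 6.69 and 6.64 in Hivep3-/- libraries, a rise of 0.68 (SE 0.09, adjusted p = 0.000685). Near Il9, a region had 5.37 and 5.64 against 6.43 and 6.35, a rise of 0.89 (adjusted p = 0.000261). The promoter of Hpgds, prostaglandin D2 synthase, had 7.28 and 7.21 against 7.92 and 7.83, a rise of 0.63 (adjusted p = 0.000969), and the promoter of Tank, a TRAF-binding protein, had 4.81 and 4.84 against 6.15 and 6.09, a rise of 1.30 (adjusted p = 0.000655). On the X chromosome, 3 of the 7 large rises were nearest to Gm21887, 1 of them with 3.34 and 3.10 against 4.96 and 4.89, a rise of 1.70 (adjusted p = 7.73e-05). All of these were chosen after their values were seen. Their groups did not overlap, but the same held in 29594 of the 55049 tested regions, so this is no further support.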
